A study of Mus musculus with 6 samples.

Results

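The miRNAs described here are the 6 mature arms of miR-21a, miR-22 and miR-210, all rows of these hairpins among the 810 miRNAs counted in small extracellular vesicles (sEV) from cochlear explants. They were chosen by name, for their known induction by injury, oxidative stress or hypoxia. Explants of the cochlear sensory epithelium, dissected from ICR mice at postnatal day 3, were cultured in medium with sEV-free serum. They received either 50 µM cisplatin for 48 h (Cis-sEV, n = 3) or an equal volume of PBS for the same time (Ctrl-sEV, n = 3). Each sample pooled the sEV of about 80 explants, from which the methods removed the spiral ganglion. A library is therefore a pool over many animals and over every cell type of the explant, and fewer cells or vesicles of a type cannot be told apart from less miRNA in each. Whether any reads came from the serum in the medium was not tested.

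A miRNA hairpin gives a 5p and a 3p arm, of which 1 is usually kept as the guide that pairs with target mRNAs through its seed, bases 2 to 8, and the other is mostly degraded. miR-21 is induced by injury and inflammation in many tissues and is known for lowering the tumor suppressor PDCD4. miR-22 is widely expressed, with roles in cell cycle exit, senescence and heart muscle stress. miR-210 is the classic target of hypoxia-inducible factor and is known for lowering mitochondrial iron-sulfur cluster assembly under low oxygen. Cells also release miRNAs in sEV, and the comparison of Cis-sEV with Ctrl-sEV addresses how cisplatin damage changes which miRNAs these vesicles carry.

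The 6 mature sequences are shown because they decide which reads are counted and which targets each arm can pair with. They are written 5′ to 3′ with the seed in capitals, as in the deposited table and in RefSeq.
mmu-miR-21a-5p: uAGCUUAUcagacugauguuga
mmu-miR-21a-3p: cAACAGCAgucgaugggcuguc
mmu-miR-22-5p: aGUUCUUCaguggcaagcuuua
mmu-miR-22-3p: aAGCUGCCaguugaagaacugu
mmu-miR-210-5p: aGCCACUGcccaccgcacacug
mmu-miR-210-3p: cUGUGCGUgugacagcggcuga

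All 6 are 22 nt long, so their read levels need no correction for length, while how well each sequence is captured in a library is not known. No 2 members share a seed. Among the 809 rows with a sequence, the seed of miR-22-3p (AGCUGCC) also occurs in 1 predicted miRNA, with 1, 12 and 7 reads in Cis-sEV and 1, 0 and 0 in Ctrl-sEV, and the seeds of the other members occur in no further row. mmu-miR-21c of RefSeq has the same first 15 bases as mmu-miR-21a-5p, and mmu-miR-21b the same first 3. Counting from the 5′ end of miR-21a-5p, the next base differs as A16G in miR-21c and as C4U in miR-21b. Neither is analysed here, and whether their reads were counted as miR-21a-5p is not given in the sources used here. Reads of miR-21c cut short before that base would be equal to those of miR-21a-5p. The G and C content was 36.4% in miR-21a-5p and 45.5% in miR-22-3p, against 68.2% and 63.6% in miR-210-5p and miR-210-3p.

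On GRCm38, Mir21a lies on chromosome 11 from 86584067 to 86584158 on the minus strand, in an untranslated region of a transcript of Vmp1, a gene for an autophagy protein of the endoplasmic reticulum. Mir22 lies on the same chromosome from 75463716 to 75463810 on the plus strand, in an exon of both transcripts of its host Mir22hg and of a non-coding transcript of Tlcd2. Mir210 lies on chromosome 7 from 141221384 to 141221493 on the minus strand and overlaps no other annotated gene.

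The Cis-sEV libraries held 1722359 to 1794175 miRNA reads and the Ctrl-sEV libraries 528952 to 718597, a ratio of the means of 2.97. Levels are given as reads, as CPM (reads per 1000000 miRNA reads of the library) and, where named, as CPM scaled by edgeR's TMM factors. These factors were 1.10 to 1.18 for Cis-sEV, against 0.761 to 0.997 for Ctrl-sEV. For a miRNA without a read, the level that 3 reads would give is the upper limit, 1.67 to 1.74 CPM for Cis-sEV libraries and 4.17 to 5.67 CPM for the shallower Ctrl-sEV ones. Intervals and limits from read numbers cover counting error only, since PCR copies of 1 molecule were not told apart. Ctrl-sEV replicate 3 stood apart from the other control libraries, with 311 miRNAs detected against 258 and 266.

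The levels of the members fell into 2 very unequal sets. miR-22-3p was among the abundant miRNAs of both groups, on rank 28 of 810 by mean CPM for Cis-sEV and rank 30 for Ctrl-sEV, and miR-21a-5p followed on rank 87 and rank 86. The arms of miR-210 stood on ranks 340 (5p) and 352 (3p) in Cis-sEV and shared rank 362 in Ctrl-sEV. In Cis-sEV miR-22-5p had rank 433 and miR-21a-3p rank 754, and neither had a read in Ctrl-sEV. In Cis-sEV the mean CPM was 11246 ± 743 for miR-22-3p and 858 ± 251 for miR-21a-5p (SD, n = 3), while the libraries ran from 4.47 to 21.5 CPM for miR-210-5p, from 3.48 to 24.5 CPM for miR-210-3p, from 2.79 to 8.71 CPM for miR-22-5p and from 0 to 1.67 CPM for miR-21a-3p. The steps from miR-22-3p to miR-21a-5p and from there to miR-210 were wider than these spreads, whereas the neighbours miR-210-5p, miR-210-3p and miR-22-5p overlapped between libraries.

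Of the 6 members, miR-21a-5p and miR-22-3p had enough reads to be tested, and neither was called changed by edgeR's quasi-likelihood test. In the same test 106 of 353 miRNAs were called, 30.0% of those tested, with 83 higher and 23 lower in Cis-sEV. DESeq2 and limma-voom called none of the members either, with adjusted p from 0.0662 to 0.893 over the 5 members DESeq2 gave a value for and with 0.671 and 0.238 for miR-21a-5p and miR-22-3p by limma-voom. Over all miRNAs, DESeq2 called 109 of the 454 it gave a value for, and limma-voom 43 of 353. At an unadjusted p under 0.05 edgeR had 0 of the 2, against 41.6% of all 353. Where every miRNA was tested without a minimum it had 3 of the 6 (miR-210-5p, miR-210-3p and miR-22-5p), against 25.2% of all 810.

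miR-21a-5p, the guide arm and injury-linked member, had 1016, 1729 and 1797 reads in Cis-sEV and 205, 283 and 483 in Ctrl-sEV. Every Cis-sEV library held more reads than every Ctrl-sEV library, as was so for 71.4% of the miRNAs tested, with a ratio of the means of 4.68 against the 2.97 of all miRNA reads. As a part of all miRNA reads, the values were 567, 1004 and 1002 CPM in Cis-sEV against 380, 394 and 913 CPM in Ctrl-sEV. On this scale the groups overlapped, because Ctrl-sEV replicate 3 lay with Cis-sEV replicates 2 and 3, and Cis-sEV replicate 1 lay nearer to the other controls.

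Scaled by TMM, miR-21a-5p averaged 758 ± 217 CPM in Cis-sEV, against 630.3 ± 322 for Ctrl-sEV (SD, n = 3), and the groups overlapped again. The log2 fold change was 0.27 with a standard error of 0.45 (edgeR, adjusted p = 0.748). Its 95% interval ran from -0.80 to 1.33, so the data allow anything between 0.575-fold and 2.52-fold of the control level. The spread between libraries was 29.3% of the mean in Cis-sEV and 54.1% in Ctrl-sEV, against 2.57% and 5.56% that the sampling of reads alone gives. The width of the interval thus came from differences between libraries far beyond read sampling. Without Ctrl-sEV replicate 3 the log2 fold change was 0.87 (edgeR, adjusted p = 0.112). With each of the 6 libraries left out in turn it ran from 0.01 to 0.87, short of the limit each time.

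miR-22-3p, the guide arm of its hairpin, had 19243, 20838 and 19550 reads in Cis-sEV and 3760, 5499 and 3663 in Ctrl-sEV, a ratio of the means of 4.61. In CPM it had 10742, 12099 and 10896 in Cis-sEV and 6966, 7652 and 6925 in Ctrl-sEV. Every Cis-sEV library lay above every Ctrl-sEV library, by 1.57 times between the means. That was no rare pattern, since 45.3% of the 353 miRNAs tested were higher in all Cis-sEV libraries on this scale and 8.78% were lower in all.

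With the TMM factors the gap of miR-22-3p narrowed to 9975 ± 935 CPM in Cis-sEV against 8130 ± 886 CPM in Ctrl-sEV (SD, n = 3). The lowest Cis-sEV library, replicate 3, had 9232 CPM and the highest Ctrl-sEV library, replicate 1, had 9151 CPM, so that the groups still did not overlap, as was the case in the same direction for 37.7% of the miRNAs tested. The log2 fold change was 0.30 with a standard error of 0.14 (edgeR, adjusted p = 0.182) and a 95% interval from -0.05 to 0.64, from 0.967-fold to 1.56-fold. A doubling, the limit for a call, lies outside this interval. Without Ctrl-sEV replicate 3 the log2 fold change was 0.36 (edgeR, adjusted p = 0.0597). The libraries of a group lay close together for this miRNA, with a spread of 6.60% (Cis-sEV) or 5.69% (Ctrl-sEV) of the mean CPM, and 1.70% of the miRNAs tested had a smaller standard error.

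**Figure D1:**
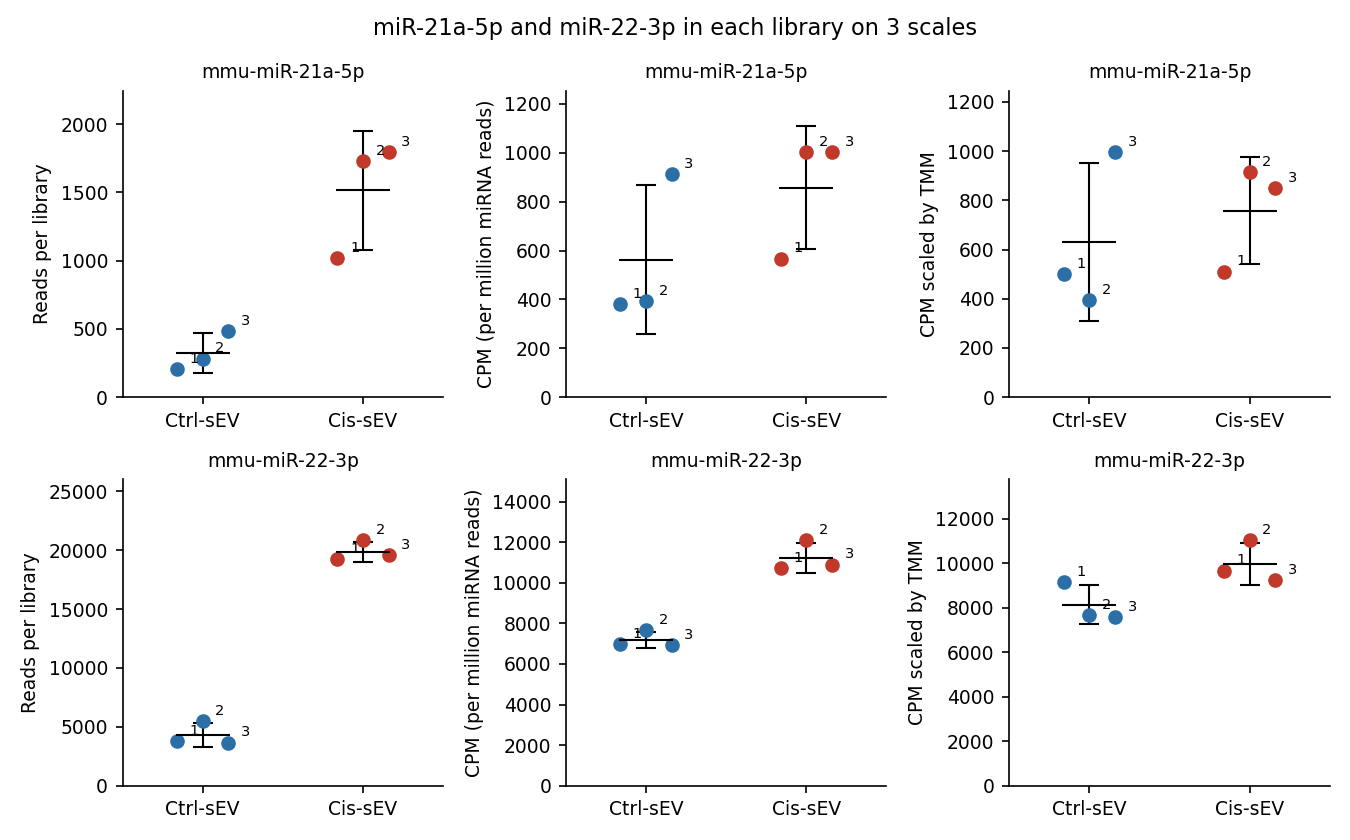
Values of miR-21a-5p (top) and miR-22-3p (bottom) in each library, as reads, as CPM and as CPM scaled by TMM (vertical axes, all from 0); points are libraries with their replicate number, and the bars give the mean and SD of 3 libraries. For miR-22-3p the groups stay apart on each scale with a gap that shrinks to 9232 against 9151 CPM under TMM, and for miR-21a-5p they overlap on the CPM scales, where Ctrl-sEV replicate 3 reaches 913 CPM before TMM.

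The size of the difference moved with the scale. Scaled by total miRNA reads alone, the log2 fold change was 0.61 for miR-21a-5p (adjusted p = 0.420) and 0.65 for miR-22-3p (adjusted p = 0.00611), the latter past the limit on p and short of that on the fold, as the limit on p alone was passed in this direction by 29.2% of the miRNAs tested. On reads with no scaling at all, which also carry the depth of each library, both were called higher, at 2.23 (adjusted p = 0.00683) and 2.21 (adjusted p = 0.00061), together with 49.0% of the miRNAs tested. The median log2 fold change of all miRNAs tested moved in the same way, from 0.44 with TMM to 0.80 with total miRNA reads and 2.37 with no scaling. Relative to that median, miR-21a-5p and miR-22-3p were at -0.17 and -0.14 with TMM, no further than the standard errors of their log2 fold changes (0.45 and 0.14). Over the 17 settings, miR-22-3p lay below the median of all miRNAs in 16 and at it in 1, and miR-21a-5p lay below it in 16 and above it in 1, without Cis-sEV replicate 1. These settings reuse the same libraries and are not separate results. Among the 353 miRNAs tested, 45.0% had a lower log2 fold change than miR-21a-5p and 45.6% a lower one than miR-22-3p.

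**Figure D2:**
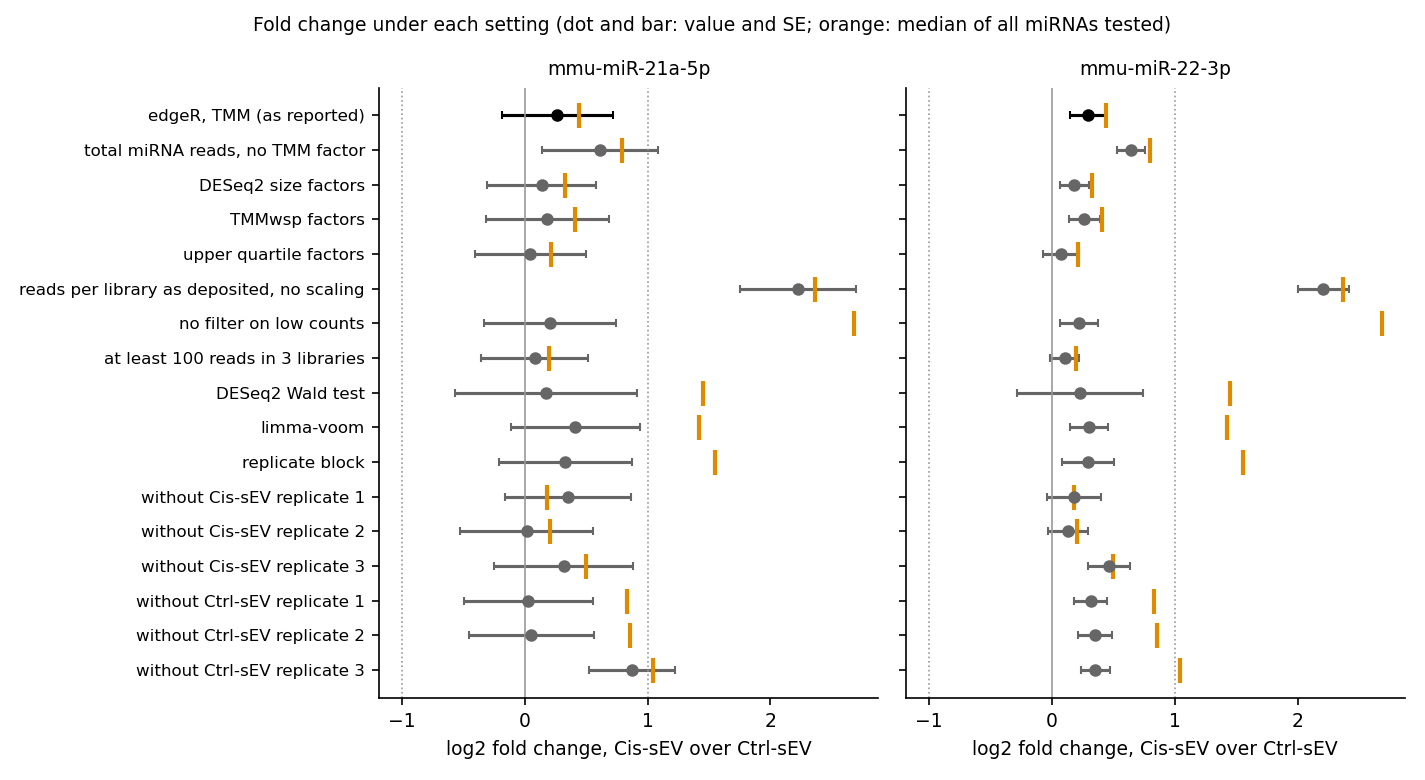
Log2 fold change of Cis-sEV over Ctrl-sEV (horizontal axis) for miR-21a-5p and miR-22-3p under each setting (vertical axis); dots and bars give the value and its SE, orange ticks the median of all miRNAs tested under that setting, and dotted lines the limits of -1 and 1. The values stay between 0 and 1 except on unscaled reads, where they are 2.23 and 2.21 beside a median of 2.37.

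**Figure D3:**
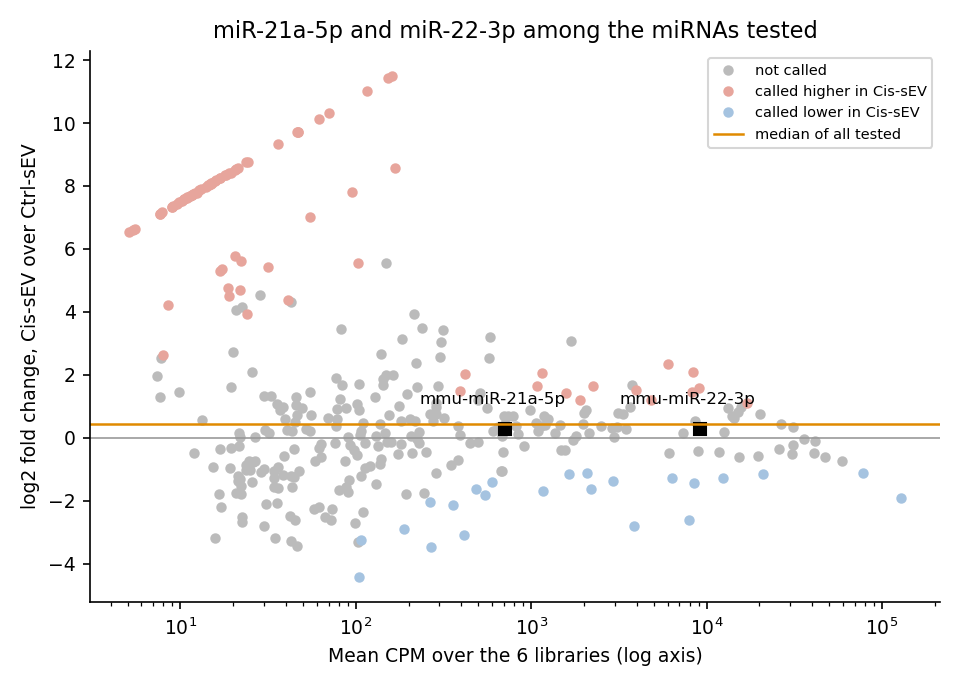
Log2 fold change (vertical axis) against mean CPM over the 6 libraries (horizontal axis, log) for the 353 miRNAs tested, with those called in color and miR-21a-5p and miR-22-3p as black squares. Both squares, at 0.27 and 0.30, lie close under the orange line, the median of 0.44; the points along the rising diagonal had 0 reads in Ctrl-sEV, and their height depends on the prior count of the fit.

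The ratio of miR-21a-5p to miR-22-3p within a library is free of any scaling. Per 1000 reads of miR-22-3p there were 52.8, 83.0 and 91.9 reads of miR-21a-5p in Cis-sEV and 54.5, 51.5 and 132 in Ctrl-sEV. The lowest and the highest of the 6 values both belonged to Ctrl-sEV. The mean log2 ratio was -3.76 ± 0.43 in Cis-sEV and -3.80 ± 0.76 in Ctrl-sEV (SD, n = 3), a difference of 0.04 (two-sided exact permutation test, p = 0.9, adjusted p = 0.9 over 3 ratios). Without Ctrl-sEV replicate 3 the difference was 0.48, and its sign turned without any 1 of 4 other libraries.

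The hypoxia-linked miR-210 had reads from both arms in every Cis-sEV library and nearly none in Ctrl-sEV. miR-210-5p had 8, 37 and 34 reads in Cis-sEV and 0, 0 and 1 in Ctrl-sEV. miR-210-3p, the arm usually taken as the guide, had 13, 6 and 44 reads in Cis-sEV and 0, 0 and 1 in Ctrl-sEV. Each arm had more reads in every Cis-sEV library than in every Ctrl-sEV library, as did 38.4% of all 810 miRNAs in reads, and the only control reads came from Ctrl-sEV replicate 3. The Cis-sEV libraries differed among themselves, with a spread of 61.3% of the mean CPM for the 5p arm and 95.4% for the 3p arm, where sampling alone gives 19.5% and 21.8%.

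Both arms fell under the minimum of edgeR's filter, so they were not among the 353 miRNAs of its test. Summed over each group and without TMM factors, miR-210-5p was 26.6 times higher in CPM in Cis-sEV. Its 95% Clopper-Pearson counting interval from 4.64 to 1064 compares these libraries and not the conditions. For miR-210-3p the ratio was 21.2 (interval 3.67 to 851) and for both arms together, with 142 reads against 2, it was 23.9 (interval 6.50 to 199). Scaled by TMM, the ratios of the group means were smaller, 19.2 for the 5p arm and 14.8 for the 3p arm. At the Cis-sEV level the 3 Ctrl-sEV libraries would have held 26.6 reads of the 5p arm and 21.2 of the 3p arm in place of 1 each. Without Cis-sEV replicate 3, which holds 44 of the 63 reads of the 3p arm, its ratio was 9.66. Without Ctrl-sEV replicate 2, the deepest control library, the ratios were 15.9 and 12.7 for the 5p and 3p arms. Without Ctrl-sEV replicate 3 no control read was left, and with 3 reads over the group as the floor the arms were at least 6.24-fold (5p) and at least 4.98-fold (3p) higher, and both together at least 11.2-fold.

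Tested without a minimum on reads, miR-210-5p and miR-210-3p did not pass edgeR's quasi-likelihood test (adjusted p = 0.120 and 0.182), nor DESeq2 (adjusted p = 0.0662 and 0.125). With 1 library left out, miR-210-5p passed edgeR's filter in 4 of the 6 fits. It could do so only through the Cis-sEV libraries where it is high, so these fits do not bear on its difference. It was called higher without Cis-sEV replicate 1 (adjusted p = 0.0436), as were 11.7% of 341 miRNAs, and without Ctrl-sEV replicate 3 (adjusted p = 0.0470), as were 32.7% of 441, and it was not called without Ctrl-sEV replicate 1 or 2 (adjusted p = 0.124 and 0.125). miR-210-3p was called in none of these fits. Of the 430 miRNAs with a read in every Cis-sEV library, 118 (27.4%) had at most 1 read over all of Ctrl-sEV.

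**Figure D4:**
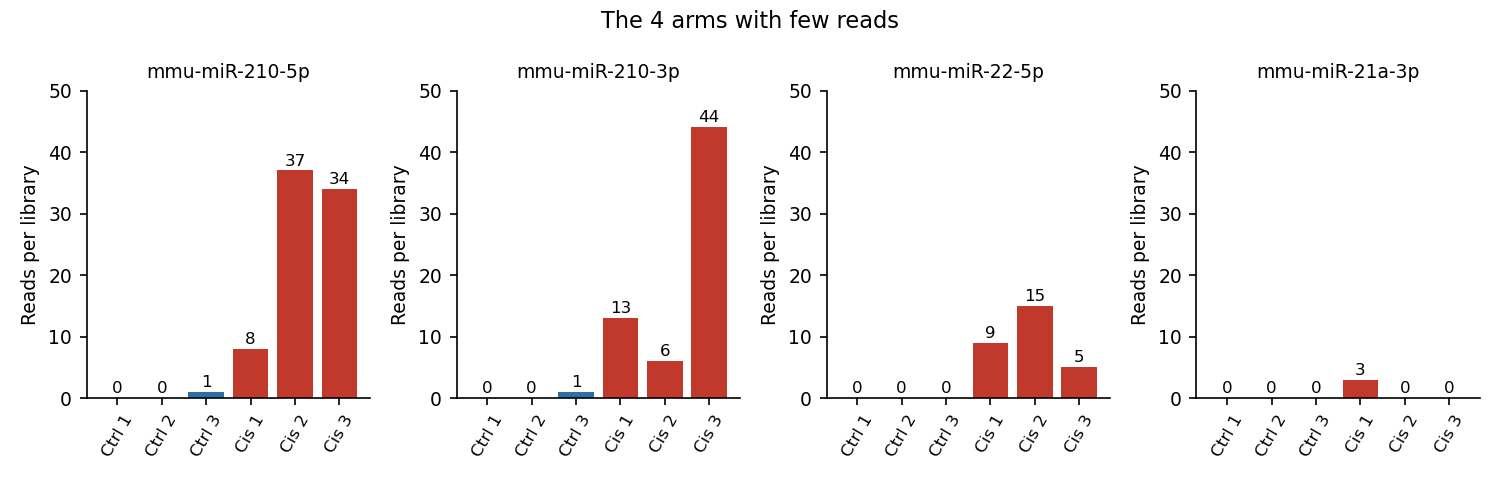
Reads per library (vertical axis, from 0) of the 4 arms with few reads, for the 3 Ctrl-sEV (blue) and 3 Cis-sEV (red) libraries. Reads of miR-210-5p, miR-210-3p and miR-22-5p appear in each Cis-sEV library, while Ctrl-sEV shows 1 read of each miR-210 arm in replicate 3, and miR-21a-3p has 3 reads in 1 library.

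Set against miR-22-3p in the same library, each Cis-sEV library held more miR-210 than each Ctrl-sEV library. How many of all miRNAs do so relative to miR-22-3p was not determined, and in reads 38.4% of all 810 did. Per 1000 reads of miR-22-3p, both miR-210 arms together had 1.09, 2.06 and 3.99 reads in Cis-sEV and 0, 0 and 0.546 in Ctrl-sEV. With 0.5 added to each count, the log2 ratio of miR-22-3p to miR-210-5p was 9.80 ± 1.16 in Cis-sEV and 12.5 ± 1.13 in Ctrl-sEV (SD, n = 3), a difference of -2.72 (two-sided exact permutation test, p = 0.1, adjusted p = 0.15 over 3 ratios). The ratio of miR-21a-5p to miR-210-5p differed by -2.68 (exact permutation test, p = 0.1, adjusted p = 0.15). With 3 libraries against 3, 0.1 is the smallest p this test can give, and the control ratios rest on the added 0.5 where miR-210 had no read. Both differences kept their sign with each library left out, and without Ctrl-sEV replicate 3 they were -3.35 and -2.87.

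The minor arms were rare. miR-22-5p, the passenger arm, had 9, 15 and 5 reads in Cis-sEV and 0 in each Ctrl-sEV library. Of the 430 miRNAs with a read in every Cis-sEV library, 100 had 0 reads over Ctrl-sEV. In CPM without TMM factors, the bounds were at least 3.26-fold higher with 3 control reads as the floor and at least 1.95-fold without Ctrl-sEV replicate 2. It made up 0.0486% of the reads of its hairpin in Cis-sEV (29 of 59660, 95% Clopper-Pearson interval 0.0326 to 0.0698%). In Ctrl-sEV the share was 0 of 12922 reads, which allows up to 0.0232%. In single control libraries, however, 0 reads allow 0.0546 to 0.0819%, no less than the shares of 0.0256 and 0.0467% in Cis-sEV replicates 3 and 1. The log2 ratio of the 5p to the 3p arm was -11.1 ± 0.70 in Cis-sEV and -13.0 ± 0.33 in Ctrl-sEV (exact permutation test, p = 0.1, adjusted p = 0.3 over 3 hairpins), and the control values follow from the 0.5 added to 0 reads.

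miR-21a-3p, the passenger arm of miR-21a, had 3 reads, all in Cis-sEV replicate 1, and no fold is given since both groups were at or under the floor. It made up 0.0660% of the hairpin's reads in Cis-sEV (3 of 4545), and 0 of 971 reads in Ctrl-sEV allow up to 0.309%, so a difference between the groups was not detectable at this depth. The arm ratio of miR-21a gave a log2 difference of 1.33 (exact permutation test, p = 0.4, adjusted p = 0.6), and 1.67 without Ctrl-sEV replicate 3. In every library but Cis-sEV replicate 1, however, this ratio rests on the count added to 0 reads of miR-21a-3p and follows the reads of miR-21a-5p. Adding 0.1 to each count gave a difference of 0.62, and adding 1 gave 1.60. The test therefore cannot decide whether the use of the arms changed.

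The arms of miR-210 were near even over the Cis-sEV libraries. The 5p arm made up 38.1, 86.0 and 43.6% of the hairpin's reads in Cis-sEV replicates 1, 2 and 3, and 55.6% over the group (79 of 142 reads, 95% Clopper-Pearson interval 47.1 to 64.0%). Replicate 2 stood apart, with an interval of 72.1 to 94.7% that does not meet that of replicate 3, 32.4 to 55.3%. With 2 reads in all, Ctrl-sEV gives no usable share, and the exact permutation test of the arm ratio gave p = 1 (adjusted p = 1).

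Other stress-linked miRNAs were taken from a list of 20, of which 19 were counted and 13 had enough reads to be tested. edgeR's quasi-likelihood test called 2 of the 13 higher and 1 lower, against 23.5% higher and 6.52% lower among all miRNAs tested, and their median log2 fold change was 0.98, beside 0.44 over all 353. The 6 without a test were miR-107-3p, miR-144-3p, miR-34c-5p, miR-215-5p, miR-132-3p and miR-223-3p, with at most 28 reads in any library. The higher ones were miR-34a-5p, a direct target of p53 after DNA damage, which rose by 2.36 ± 0.29 on the log2 scale (standard error, edgeR adjusted p = 0.00502), and miR-200a-3p, a repressor of the Nrf2 inhibitor Keap1, at a rise of 1.21 ± 0.28 (adjusted p = 0.0164). The lower one was miR-451a, made in red cell precursors, with a log2 difference of -1.15 ± 0.30 (adjusted p = 0.0219). Over the 16 alternatives, miR-34a-5p was called higher in 16, miR-200a-3p in 7 and miR-451a lower in 5, and miR-451a turned to 0.72 on unscaled reads. The hypoxia-linked miR-103-3p came to 1.61 ± 0.96 without passing the test (adjusted p = 0.280), and miR-322-5p and miR-199a-5p, also linked to it, had 0.22 and 0.11. The largest log2 fold change of the list was that of the redox-linked miR-141-3p, 2.54 ± 1.18, which did not pass either (edgeR adjusted p = 0.157). The inflammation-linked miR-146a-5p came to -0.08 ± 0.20 (adjusted p = 0.850) and miR-146b-5p to -0.67 ± 2.01 (adjusted p = 0.865). Also not called were miR-145a-5p at 1.72, miR-192-5p at 0.98 and miR-194-5p at 0.88. miR-155-5p had 305, 537 and 389 reads in Cis-sEV and 0, 0 and 82 in Ctrl-sEV, so that, as for miR-210, its control reads all came from replicate 3 (1.88 ± 2.08, adjusted p = 0.618). The number called moved with the settings, for example to 1 of 13 with limma-voom, where 12.2% of all were called, and to 7 of 16 without Ctrl-sEV replicate 3, where 38.3% of all were.

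Markers of the cell types that an explant can hold were read beside these values, since miR-21, miR-22 and miR-210 are made by many of them. The hair cell miRNAs miR-183-5p, miR-96-5p and miR-182-5p were all present, summing to 59073 to 81525 CPM for Cis-sEV against 54984 to 55757 CPM for Ctrl-sEV, without moving together. miR-96-5p was called higher (log2 fold change 2.08, edgeR adjusted p = 0.0142), miR-183-5p lay lower in every Cis-sEV library at a size short of the limit (-0.49, adjusted p = 0.0419), and miR-182-5p was at 0.18 (adjusted p = 0.782). Of the leukocyte markers 3 of 5 were in the table, with both arms of miR-142a not analysed here. None of these was called, and their summed level of 430 to 674 CPM in Cis-sEV overlapped that of 399 to 561 CPM in Ctrl-sEV. In Ctrl-sEV replicate 3, the control with most miR-21a-5p, the members of this list diverged, with the fewest reads of miR-150-5p (129, against 235 and 399) and the only control reads of miR-155-5p (82). The red cell and platelet markers, with miR-144-3p at 0 reads in 5 of the 6 libraries and miR-451a and miR-486a-5p both called lower, summed to 1153 to 1306 CPM against 1509 to 3330 CPM for Ctrl-sEV. The 2 endothelial arms went opposite ways. miR-126a-3p, which makes up nearly all of their sum of 6915 to 9947 against 14595 to 18602 CPM, was called lower (log2 fold change -1.28, edgeR adjusted p = 0.00523), whereas miR-126a-5p had 94, 51 and 84 reads against 0, 0 and 3 in Ctrl-sEV and was not called (4.17, adjusted p = 0.0759). The sum of the 2 smooth muscle markers lay at 4489 to 4973 against 1933 to 2513 CPM and that of the 3 mesenchymal ones at 1573 to 5022 against 1085 to 2794 CPM. None of these 5 was called, although miR-143-3p lay higher in every Cis-sEV library at a size short of the limit (log2 fold change 0.77, edgeR adjusted p = 0.0141). The part of these cell types, or of the serum in the medium, in the values of miR-21, miR-22 and miR-210 was not tested.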

How the data were processed

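Small RNA of sEV was measured in 3 Cis-sEV and 3 Ctrl-sEV libraries. The authors cut RNA of miRNA length from a gel, read it by DNBSEQ sequencing, aligned the reads with Bowtie2 to GRCm38.p6 (tool and build also in the submitters' processing notes), annotated them with AASRA and CMSearch, and deposited the read count of each mature miRNA, without normalization. Each small RNA kept 1 annotation, with miRBase ranked ahead of the other databases, but how reads matching several miRNAs were assigned is not given in the sources used here. No column of per-sample counts was left out, and the deposited group averages were not used.

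Counts were tested with edgeR 4.0.16 (quasi-likelihood, TMM factors, filterByExpr with a minimum of 10 reads and 15 in all) in R 4.3.3, with Benjamini-Hochberg adjustment over the 353 miRNAs tested. The limits were those of the methods, adjusted p no higher than 0.05 and a log2 fold change of 1 or more in either direction. The methods name a test based on the MA-plot without further detail, and edgeR, which uses the spread between replicates, was run in its place. Standard errors were the log2 fold change divided by the square root of the F statistic, and 95% intervals used the fit's degrees of freedom. Ratios within a library, with 0.5 added to each count, were compared by two-sided exact permutation tests (scipy 1.17.1). Alternatives used DESeq2 1.42.0, limma-voom of limma 3.58.1, other scalings and filters, a replicate block, and each library left out in turn. On simulated counts for this comparison, edgeR recovered 199 of 200 changed miRNAs with 1 false call among 408 tested. Those counts held large changes only and a smaller spread between libraries than edgeR estimated here (common coefficient of variation 0.967). They therefore give no power or error rate for these libraries.

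The members, lists and rules were chosen with earlier results of these data known. The miRNAs named by rule are all rows of the 3 hairpins, those of a list of other stress-linked miRNAs and of marker lists, rows that share a seed with a member, and the 3 miRNAs most alike to the most abundant arm of each hairpin. Positions are those of RefSeq and GENCODE M21, both on GRCm38, and all 6 mature sequences in the deposited table equal those of RefSeq. Within a group, the chi-square between libraries was 80.5 to 118 per degree of freedom, far above read sampling, so none was counted as a repeat of another. The series text calls the 3 libraries of a group biological replicates, and no source used here ties them to litters or days.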

Additional observations from a re-analysis of the deposited data

How the results depend on the processing

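The log2 fold changes of miR-21a-5p and miR-22-3p stayed positive in all 16 alternatives run and were called in 1 of them, reads with no scaling, at 2.23 and 2.21, where the members called numbered 2 and the stress-linked ones 7. With 1 library left out they ran from 0.01 to 0.87 and from 0.13 to 0.47, and the members called from 0 to 1 (miR-210-5p, when Cis-sEV replicate 1 was dropped, or Ctrl-sEV replicate 3). In these 2 fits 11.7% of 341 and 32.7% of 441 miRNAs were called higher. miR-210-5p entered them only through the Cis-sEV libraries where it is high, so they do not bear on its difference. Stress-linked miRNAs called numbered 3 in the report's fit and 1 with no filter on low counts, DESeq2, limma-voom or the replicate block, and 1 to 7 with 1 library left out. Over all miRNAs, 76 of 810 were called with no filter, 109 of 454 with DESeq2, 43 of 353 with limma-voom and 24 of 353 with the replicate block. miR-34a-5p was called in all 16 alternatives, miR-200a-3p in 7 and miR-451a in 5. The cause was not tested.

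Over all miRNAs, 106 were called as reported, 43 with limma-voom, 45 with at least 100 reads in 3 libraries and 53 to 169 with 1 library left out, from 53 and 57 without Cis-sEV replicates 1 and 2 to 169 without Ctrl-sEV replicate 3. With no scaling, 173 were called higher and 0 lower, against 83 and 23, and with total miRNA reads 97 and 11.

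The deviations of same-numbered libraries from their group means correlated at -0.04, -0.17 and -0.02, so the replicate numbers were not taken to pair the samples. Of the 6 libraries, 0 correlated best with their own number. With the replicate block, 24 miRNAs were called in place of 106, the log2 fold changes of miR-21a-5p and miR-22-3p were 0.33 and 0.30, and no call of a member changed.

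The miR-210 arm ratio difference ran from -0.52 to 1.08 with 1 library left out and was -0.52, of the opposite sign, without Cis-sEV replicate 2. That of miR-21a-5p to miR-22-3p ran from -0.20 to 0.48 and was negative without Cis-sEV replicate 2 (-0.05) or 3 (-0.12) and without Ctrl-sEV replicate 1 (-0.16) or 2 (-0.20). The ratios of miR-21a-5p and miR-22-3p to miR-210 ran from -3.11 to -2.42 and from -3.39 to -2.26. With miR-210-3p in place of the 5p arm, a setting chosen after seeing the data, they were -2.18 and -2.22. With both arms summed, also chosen after seeing the data, they were -3.34 and -3.38. Adding 1 to each count gave -1.91 and -1.95, and adding 0.1 gave -4.34 and -4.38.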

Other observations

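The miRNAs most alike to each member were named by Pearson's r of log2(CPM + 1) over the 6 libraries, among the 353 tested. These are descriptions over 6 points that share their depth and fall into 2 groups, with no test. For miR-21a-5p they were miR-29b-3p (r = 0.976), miR-877-5p (r = 0.975) and miR-33-5p (r = 0.963), none of which was called. For miR-22-3p they were miR-7a-2-3p, miR-190a-5p and miR-324-3p (r = 0.988 to 0.989), which had 58, 110 and 251 reads in Cis-sEV and 0 in Ctrl-sEV. A high r thus joined a miRNA with a small difference between the groups to miRNAs found in 1 group. For miR-210-5p they were miR-27a-3p (r = 0.973), miR-106b-5p (r = 0.968) and miR-98-5p (r = 0.968). Between the members themselves, r was 0.551 for miR-21a-5p with miR-22-3p, 0.861 for miR-21a-5p with miR-210-5p and 0.886 for miR-22-3p with miR-210-5p.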
